A study of Homo sapiens with 4 samples.

Results

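The 10 genes described here encode secreted inflammatory cytokines and chemokines: IL1A, IL1B, IL6, IL11, LIF, CXCL1, CXCL2, CXCL3, CSF2 and CCL20. They were taken by symbol from a table of 48162 genes, and all 10 were found in it. Cells of MDA-MB-231, a triple-negative breast cancer line of human origin, received either vehicle control or MGH-CP1 for 24 h, and RNA was sequenced from 2 libraries per group. MGH-CP1 is a small molecule that blocks the palmitoylation of TEAD, the DNA-binding partner of the YAP and TAZ coactivators; its dose is 10 µM in the sample labels and 10 mM in the methods. Both groups carry no other agent or genetic change in the labels, and the labels do not say whether the libraries came from separate cultures, so p-values measure the spread between these libraries only. The question put to the data was which of these cytokine genes differed between the treated and the vehicle control cells.

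Interleukin-1, made as alpha and beta forms, activates NF-κB and MAP kinases through its receptor and induces other cytokines. IL-6, IL-11 and LIF each bind a receptor of their own and signal through the shared chain gp130 to the JAK kinases and STAT3. CXCL1, CXCL2 and CXCL3 attract neutrophils through CXCR2, CSF2 (GM-CSF) acts on myeloid cells, and CCL20 attracts CCR6-bearing lymphocytes. Many of these mRNAs are short-lived because of AU-rich elements near their 3′ ends, and basal breast cancer lines are known for secreting several of the proteins.

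Values are FPKM, fragments scaled to the gene's length and to the library's total of fragments on genes. Levels are compared between genes on the deposited lengths, which are fixed annotation values. The libraries held 25455533 and 25508824 fragments in the vehicle control and 17997221 and 17577930 after MGH-CP1, so the treated libraries were the shallower ones. Differences were tested with limma on log2(FPKM + 1), with Benjamini-Hochberg adjustment over the 12080 genes with a mean of at least 1 FPKM, and a fold change on this scale understates that of low genes. CYR61, CTGF and ANKRD1, TEAD target genes that the study itself measured and therefore not independent evidence, were lower by 0.75, 0.66 and 0.66 on the log2 scale. Their summed level was 581 and 597 FPKM in the vehicle control and 344 and 370 FPKM after MGH-CP1. In a sheet of the study's source data that includes IL11, the labels for up and down run opposite to the values in its own columns; all directions here, that of IL11 included, follow the column labels, under which the TEAD targets were lower. Of the MDA-MB-231 markers, VIM was at 259 to 281 FPKM and CD44 at 198 to 221 FPKM in the 4 libraries, EGFR fell by 0.46, KRT8 fell by 0.18 and KRT18 fell by 0.35 (log2).

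Sequence upstream of the start sites was read for 9 of the 10 members (all but LIF) from RefSeq promoter windows on GRCh38.p14, each covering 250 bases before and 50 bases after the start. The CXCL windows are shown because 2 of these neighbours rose together and the third, CXCL3, was below the filter, and because the windows are close copies: identity over the full windows was 82.5% between CXCL1 and CXCL3, 71.9% between CXCL1 and CXCL2 and 73.8% between CXCL2 and CXCL3. The 250 bases before the start are printed 5′ to 3′ on the gene's strand, and capitals mark matches, on either strand, to the NF-κB consensus.
CXCL1, chr4:73869143-73869392, strand plus: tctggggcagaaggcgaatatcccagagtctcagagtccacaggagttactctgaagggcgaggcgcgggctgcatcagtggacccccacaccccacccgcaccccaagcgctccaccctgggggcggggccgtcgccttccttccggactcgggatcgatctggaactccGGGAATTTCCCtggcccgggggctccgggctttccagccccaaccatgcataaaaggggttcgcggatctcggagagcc
CXCL2, chr4:74099196-74099445, strand minus: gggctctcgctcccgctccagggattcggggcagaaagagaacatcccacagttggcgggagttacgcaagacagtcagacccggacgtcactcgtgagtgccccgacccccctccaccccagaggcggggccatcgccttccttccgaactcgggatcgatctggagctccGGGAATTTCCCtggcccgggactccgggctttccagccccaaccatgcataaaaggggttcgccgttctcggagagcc
CXCL3, chr4:74038690-74038939, strand minus: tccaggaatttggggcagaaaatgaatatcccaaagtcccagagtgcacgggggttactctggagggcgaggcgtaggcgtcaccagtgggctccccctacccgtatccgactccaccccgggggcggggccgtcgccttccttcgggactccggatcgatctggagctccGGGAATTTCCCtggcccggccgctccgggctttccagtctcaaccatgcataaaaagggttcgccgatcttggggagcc
All 3 carried the same 10 letters, GGGAATTTCC, and the overlapping match on the other strand. The match began 79 bases before the start in CXCL1 and CXCL3 and 78 bases before it in CXCL2. Over all 35116 RefSeq windows of this length, 5.91% held a match to this consensus.

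IL6, which rose, IL11, which fell, and IL1B, which had the largest rise, are shown for contrast. Capitals mark the NF-κB consensus in IL6 and TGANTCA, the core letters that AP-1 is known to bind, in IL11; IL1B has no capitals.
IL6, chr7:22726950-22727199, strand plus: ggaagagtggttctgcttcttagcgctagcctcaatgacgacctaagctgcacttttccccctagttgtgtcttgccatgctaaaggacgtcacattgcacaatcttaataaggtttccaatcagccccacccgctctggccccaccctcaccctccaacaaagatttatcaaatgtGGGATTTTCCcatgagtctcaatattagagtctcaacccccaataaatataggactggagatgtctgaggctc
IL11, chr19:55370464-55370713, strand minus: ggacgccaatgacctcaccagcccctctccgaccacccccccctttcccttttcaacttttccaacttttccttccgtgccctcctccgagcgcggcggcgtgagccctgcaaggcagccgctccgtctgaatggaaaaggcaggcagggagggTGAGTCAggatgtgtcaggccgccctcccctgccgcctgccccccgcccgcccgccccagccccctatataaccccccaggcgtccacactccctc
IL1B, chr2:112836780-112837029, strand minus: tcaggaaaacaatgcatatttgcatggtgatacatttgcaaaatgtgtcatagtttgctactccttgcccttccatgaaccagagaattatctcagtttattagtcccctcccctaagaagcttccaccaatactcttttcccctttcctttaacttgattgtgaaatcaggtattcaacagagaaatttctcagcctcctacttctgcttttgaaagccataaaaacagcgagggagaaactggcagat
The IL6 window held GGGATTTTCC at 73 bases before the start, and the IL11 window held TGAGTCA at 96 bases before it. Matches to TGANTCA occurred in 7.71% of all windows. GGAATG, the core letters bound by TEAD, was searched on both strands as well. It was found in 1 of the 9 members, CCL20, 45 bases before the start, and in 14.0% of all windows, so the share among the members is near the background. CCL20 also held an NF-κB match, IL1A held TGANTCA, and the CSF2 window held none of these 3 motifs. Absence of a match says only that these letters are not in the window, and a match is a description of sequence, not a bound site.

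Of the 10 members, 7 had a mean of at least 1 FPKM and were tested: IL1B, IL6, LIF, CXCL1, CXCL2 and CSF2 were called higher after MGH-CP1, and IL11 was called lower. IL1A, CXCL3 and CCL20 were below the filter, and IL1B passed it only through its treated libraries, so the count of members called supports nothing by itself. The background was high in both directions, and which direction led depended on the scaling: across all 12080 genes tested, 27.1% were called higher and 23.8% lower, and among the 7535 genes with a mean of 1 to 15 FPKM, where the 7 tested members lie, 26.2% were called higher and 17.8% lower. In all 7 the libraries of the groups did not overlap, which held across all genes tested for 39.8% upward and 37.4% downward. Of all genes tested, 3273 were called higher and 2869 lower as scaled here, against 2815 and 3481 under median-ratio scaling and 2918 and 3221 under quantile normalization. The median log2 fold change of all genes tested was 0.01. With 2 libraries against 2, an exact permutation test of a single gene cannot go below p = 0.33.

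**Figure D1:**
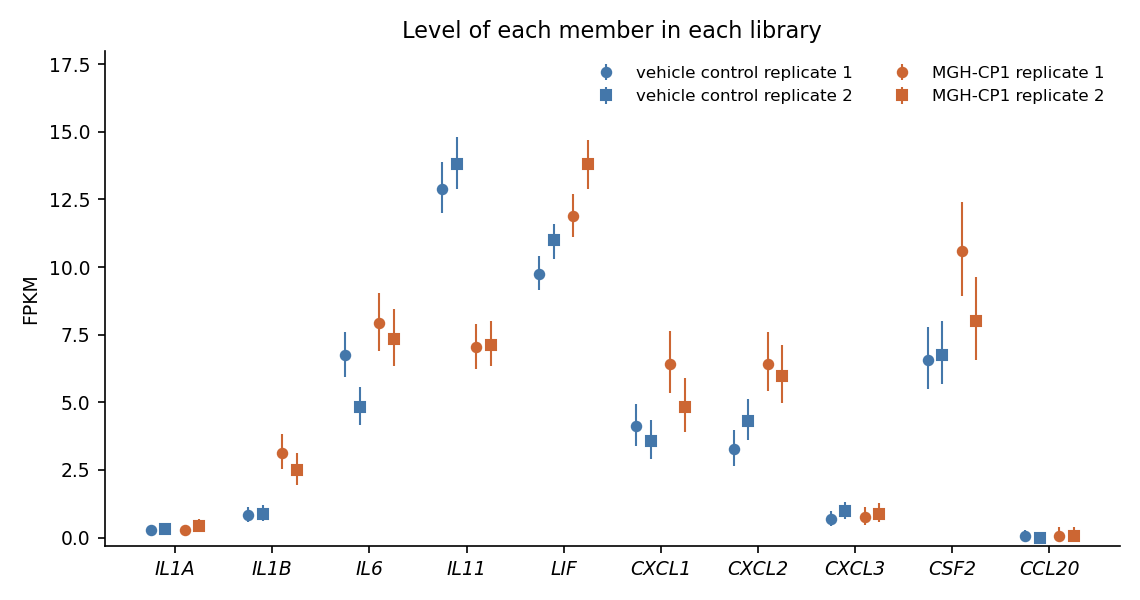
FPKM of the 10 members in each of the 4 libraries; blue marks are vehicle control, orange marks MGH-CP1, and bars are exact 95% Poisson intervals of the fragment counts. IL11 drops from 12.9 and 13.8 to 7.04 and 7.13 FPKM, IL1B rises from below 1 to 3.13 and 2.48 FPKM, and CCL20 stays near 0.

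IL1B (ENSG00000125538, chromosome 2, 113587328 to 113594480, in hg19 as all gene positions here) encodes the beta form, made as an inactive precursor that CASP1 cleaves. Its level was 0.819 and 0.865 FPKM in the vehicle control and 3.13 and 2.48 FPKM after MGH-CP1, and both treated libraries lay above both controls. The mean went from 0.842 ± 0.0328 to 2.81 ± 0.465 FPKM (SD, n = 2 each), a ratio of 3.33. On the log2(FPKM + 1) scale the change was 1.04 (SE 0.13, 95% interval 0.75 to 1.33, adjusted p = 0.000348), but IL1B passed the filter through the treated libraries only and so entered this test because it was high there. With no filter on low values, where that choice plays no part, the change was 1.04 (interval 0.68 to 1.41, adjusted p = 0.022). It rested on 34 and 36 fragments in the controls and 92 and 71 after treatment.

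IL1A (ENSG00000115008, chromosome 2, 113531492 to 113542167), the neighbouring gene for the alpha form, stood at 0.296 and 0.314 FPKM in the vehicle control and 0.262 and 0.429 FPKM after MGH-CP1. The groups overlapped, and with 10 to 17 fragments per library the pooled rate ratio was 1.13 with a 95% counting interval of 0.648 to 1.95. The same ratio for IL1B was 3.34 (2.51 to 4.48); these intervals cover counting error only, and the difference between the genes was not tested. Summed, the 2 genes went from 1.11 and 1.18 to 3.40 and 2.91 FPKM.

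Because monocytes and macrophages are a well-known source of IL-1β, markers of immune cells were read beside these values. CD14 was 2.44 and 1.79 FPKM in the controls and 4.07 and 3.29 FPKM after treatment. CSF1R was 1.27 and 1.24, then 2.83 and 2.80 FPKM. Of the 6 markers listed, only these 2 passed the filter. Both were called higher, against 27.1% called higher over all genes tested. The other 4, PTPRC, CD3E, MS4A1 and ITGAM, were at or near 0, with PTPRC, which all leukocytes express, at no more than 0.0321 FPKM in any library. The summed level of the 6 markers was 3.06 to 3.76 FPKM in the controls and 6.18 to 6.95 FPKM after MGH-CP1. The endothelial marker CDH5 was listed at 0 in all 4 libraries. In bulk RNA a change in the number of expressing cells and a change of RNA per cell cannot be told apart.

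The gp130 cytokines moved in opposite directions. IL11 (ENSG00000095752, chromosome 19, 55875757 to 55881831), known for its part in bone metastasis of breast cancer models and in fibrosis, was the most abundant member in both vehicle control libraries, at 12.9 and 13.8 FPKM. After MGH-CP1 it stood at 7.04 and 7.13 FPKM. The mean fell from 13.4 ± 0.625 to 7.09 ± 0.0658 FPKM (SD, n = 2 each), a ratio of 0.53, and the log2 change was -0.83 (SE 0.07, interval -0.98 to -0.67, adjusted p = 6.3e-05). It rested on 751 and 804 fragments against 289 and 286, and 1.09% of the genes tested fell more. IL11 and IL1B were the 2 members in which the counting interval of every treated library was clear of that of every control library.

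LIF (ENSG00000128342, chromosome 22, 30636436 to 30642840), which maintains stem cell states and acts on many tissues, was higher after treatment by a smaller amount. It was at 9.76 and 11.0 FPKM in the controls and 11.9 and 13.8 FPKM after MGH-CP1, with means of 10.4 ± 0.866 and 12.8 ± 1.32 FPKM (SD, n = 2 each). The log2 change was 0.28 (SE 0.09, interval 0.08 to 0.48, adjusted p = 0.0265). The treated libraries differed from each other beyond counting error, and without MGH-CP1 replicate 2 the change was 0.19 (adjusted p = 0.161), while without vehicle control replicate 1 it was 0.20 (adjusted p = 0.119).

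IL6 (ENSG00000136244, chromosome 7, 22765503 to 22771621), the main inducer of the acute-phase response, was the weakest call. It was at 6.74 and 4.83 FPKM in the vehicle control and 7.93 and 7.34 FPKM after MGH-CP1, so the groups did not overlap but the controls lay apart: their counting intervals, 5.95 to 7.61 and 4.16 to 5.57 FPKM, did not meet. Means were 5.78 ± 1.35 and 7.64 ± 0.419 FPKM (SD, n = 2 each), and the log2 change was 0.36 (SE 0.13, interval 0.07 to 0.66, adjusted p = 0.0436). Without vehicle control replicate 2 the change was 0.16 (adjusted p = 0.227), without MGH-CP1 replicate 1 it was 0.31 (adjusted p = 0.172) and without MGH-CP1 replicate 2 it was 0.41 (adjusted p = 0.0822). The call was also lost under median-ratio scaling and quantile normalization.

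Taken as a sum, IL6, IL11 and LIF held 29.4 and 29.6 FPKM in the controls and 26.9 and 28.2 FPKM after treatment. IL11 made up 43.9% and 46.6% of that sum in the controls and 26.2% and 25.3% after MGH-CP1. That share was lower in both treated libraries than in both controls.

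**Figure D2:**
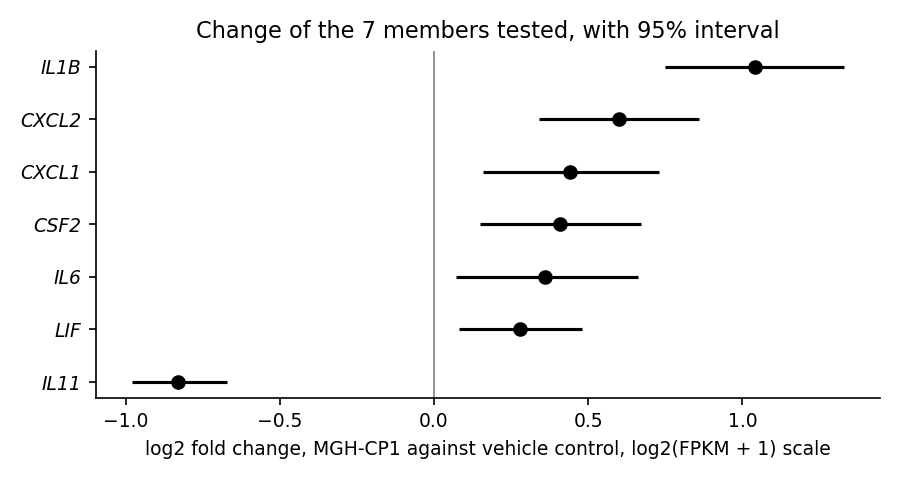
Log2 fold change of the 7 members tested, MGH-CP1 against vehicle control on the log2(FPKM + 1) scale, with limma's 95% interval as a bar and no change as the grey line. IL1B (1.04) is at the top and IL11 (-0.83) at the bottom, and the intervals of the 5 genes between them overlap one another.

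Among the CXCR2 chemokines, which lie within a single stretch of chromosome 4, CXCL1 and CXCL2 rose. CXCL2 (ENSG00000081041, 74962752 to 74965010) was at 3.26 and 4.31 FPKM in the vehicle control and 6.43 and 5.98 FPKM after MGH-CP1. Both treated libraries were above both controls, with means of 3.79 ± 0.746 and 6.21 ± 0.321 FPKM (SD, n = 2 each) and a log2 change of 0.60 (SE 0.11, interval 0.34 to 0.86, adjusted p = 0.00313). It rested on 101 to 141 fragments per library. CXCL1 (ENSG00000163739, 74735110 to 74736959) was at 4.12 and 3.57 FPKM, then 6.43 and 4.82 FPKM. Its means were 3.85 ± 0.385 and 5.63 ± 1.14 FPKM (SD, n = 2 each), with a log2 change of 0.44 (SE 0.12, interval 0.16 to 0.73, adjusted p = 0.0187). The treated libraries spread more than the controls, and the adjusted p was 0.111 (log2 change 0.27) without MGH-CP1 replicate 1 and 0.0615 (0.36) without vehicle control replicate 2.

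CXCL3 (ENSG00000163734, 74902306 to 74904524), for the third of these chemokines, was at 0.670 and 0.979 FPKM in the controls and 0.745 and 0.867 FPKM after treatment. Its treated libraries lay between the controls. With 22 to 41 fragments per library the pooled rate ratio was 0.976, with a counting interval of 0.659 to 1.43, whereas the same ratio was 1.64 (1.37 to 1.96) for CXCL2 and 1.47 (1.21 to 1.78) for CXCL1. The difference between CXCL3 and its neighbours was not tested. The transcripts are similar in part. Of all 50-base stretches, 5.73% of CXCL1, 9.24% of CXCL2 and 5.26% of CXCL3 occurred in either of the others. Reads were 150 bp pairs, longer than these stretches, so these percentages are not shares of fragments. Whether fragments were shared or dropped in counting was not tested. Of further CXCR2 ligands of the same stretch (chosen after their values were seen), CXCL5, CXCL6 and PPBP were listed at 0 in every library. IL8, 125677 bases from CXCL1, was at 10.7 and 9.43 FPKM in the controls and 11.8 and 11.1 FPKM after MGH-CP1.

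CSF2 (ENSG00000164400, chromosome 5, 131409483 to 131411859) encodes GM-CSF, which drives the growth and activation of granulocytes and macrophages. It was at 6.57 and 6.76 FPKM in the vehicle control and 10.6 and 7.99 FPKM after MGH-CP1. The controls were close to each other and below both treated libraries, with means of 6.67 ± 0.132 and 9.28 ± 1.83 FPKM (SD, n = 2 each). The log2 change was 0.41 (SE 0.11, interval 0.15 to 0.67, adjusted p = 0.017). Without MGH-CP1 replicate 1 it was 0.23 (adjusted p = 0.0851). IL3, the cytokine gene beside CSF2 and also chosen after its values were seen, was listed at 0 in all libraries.

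CCL20 (ENSG00000115009, chromosome 2, 228678558 to 228682272) was barely detected. It had 1 and 0 fragments in the controls and 1 and 1 after treatment, which is under the floor of 3 fragments in every library, so no fold was computed and a change was not detectable at this depth.

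The order of the levels shifted with IL11. In the vehicle control the order of mean FPKM was IL11, LIF, CSF2, IL6, CXCL1, CXCL2, IL1B, CXCL3, IL1A and CCL20, and after MGH-CP1 it was LIF, CSF2, IL6, IL11, CXCL2, CXCL1, IL1B, CXCL3, IL1A and CCL20. IL11 went from rank 1 in both control libraries to rank 4 in both treated libraries. In the controls CSF2 and IL6, CXCL1 and CXCL2, and IL1B and CXCL3 changed places between libraries and did not differ beyond their spread. In the treated libraries CXCL1 and CXCL2 did so, and the counting intervals of neighbours from CSF2 down to CXCL1 overlapped. Summed over all 10 members, the level was 45.2 and 46.4 FPKM in the controls and 54.5 and 50.9 FPKM after MGH-CP1, and the share of IL11 in that sum was 28.6% and 29.8%, then 12.9% and 14.0%.

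The settings of the analysis mattered most for the members with small changes. All 7 calls were kept on libraries thinned to equal depth and in limma voom on recovered fragments, and the treated libraries were the shallower ones. With no filter on low values, which brought all 10 members into the fit, the adjusted p stayed under the threshold for IL11 (0.0129) and IL1B (0.022) and for no other member. In a test per gene without shared variance no member was called, with adjusted p = 0.0593 for IL11 and 0.0743 for IL1B.

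**Figure D3:**
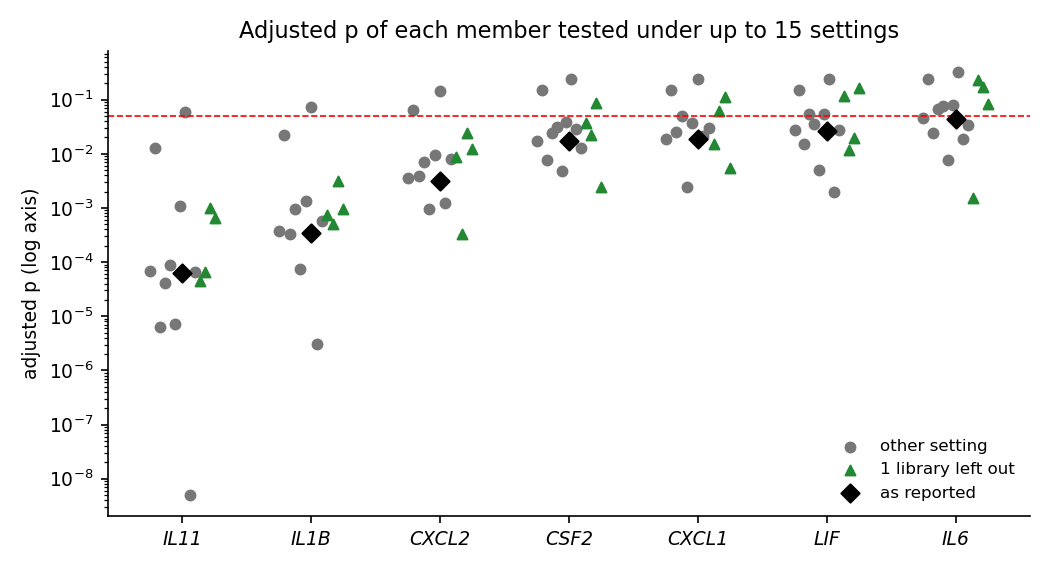
Adjusted p (log axis) of each tested member as reported (black diamonds), with 1 library left out (green triangles) and under the other settings (grey circles), with the threshold of 0.05 as a dashed line. IL11 and IL1B each cross the line in a single setting, and IL6 crosses it in 8 of 14.

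RNA for the receptors of these ligands was only partly present in the cells. IL1R1, the signalling receptor for both forms of IL-1, was at 7.63 and 6.99 FPKM in the controls and 10.4 and 9.30 FPKM after MGH-CP1, with a log2 change of 0.39 (adjusted p = 0.00492). Its partner chain IL1RAP rose by a similar amount, 0.38 (adjusted p = 0.00217), from 7.14 and 7.28 to 9.76 and 9.57 FPKM. IL6ST, which encodes gp130, went the other way, from 57.8 and 53.3 to 46.4 and 47.6 FPKM (-0.24, adjusted p = 0.0086). That call was lost with no filter on low values, without shared variance and without MGH-CP1 replicate 1.

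Of the 12 receptor genes listed, 5 passed the filter, 2 were called higher, 1 lower and 2 not called, with a median log2 change of 0.17. For this list and those below, the share over all genes tested was 27.1% called higher and 23.8% lower. The lists were not tested as sets. The receptors named next were chosen after their values were seen. CSF2RA, the specific chain for GM-CSF, stood at 14.6 to 16.1 FPKM, while CSF2RB, its signalling partner, was listed at 0, as were CXCR1 and CXCR2. IL6R was at 0.0673 to 0.132 FPKM. IL11RA, below the filter, was at 0.405 and 0.469 FPKM in the controls and 0.942 and 1.06 FPKM after MGH-CP1, with no test.

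Of 15 genes for the processing and signalling of IL-1, 13 were tested, 7 called higher and 2 lower, with a median of 0.28. SIGIRR, a receptor that damps IL-1 signalling, rose most, from 3.93 and 4.68 to 11.7 and 12.6 FPKM (1.31, adjusted p = 3.26e-05). PYCARD, the inflammasome adaptor, rose by 0.87 (adjusted p = 0.00186), and IRAK2, a kinase-like signalling protein downstream of the receptor, by 0.57 (adjusted p = 0.000272). The kinases IRAK4 (-0.37, adjusted p = 0.0106) and IRAK1 (-0.34, adjusted p = 0.0023) fell. CASP1 was below the filter at 0.216 to 0.256 FPKM, and was chosen after its value was seen.

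Of 15 NF-κB genes, all passed the filter, 8 were called higher and 2 lower, with a median of 0.33. NFKBIZ, a nuclear cofactor needed for a subset of cytokine genes, rose most. It went from 3.5 and 3.57 to 7.17 and 7.06 FPKM (0.84, adjusted p = 0.000102). NFKBIA, the inhibitor IκBα, went from 52.2 and 52.7 to 95.9 and 86.4 FPKM (0.78, adjusted p = 4.62e-05). BCL3, another nuclear cofactor, rose by 0.69 (adjusted p = 4.74e-05). NFKB1, which encodes the p50 subunit precursor, fell by 0.38 (adjusted p = 0.00135), and the kinase gene CHUK fell by 0.31 (adjusted p = 0.00881).

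**Figure D4:**
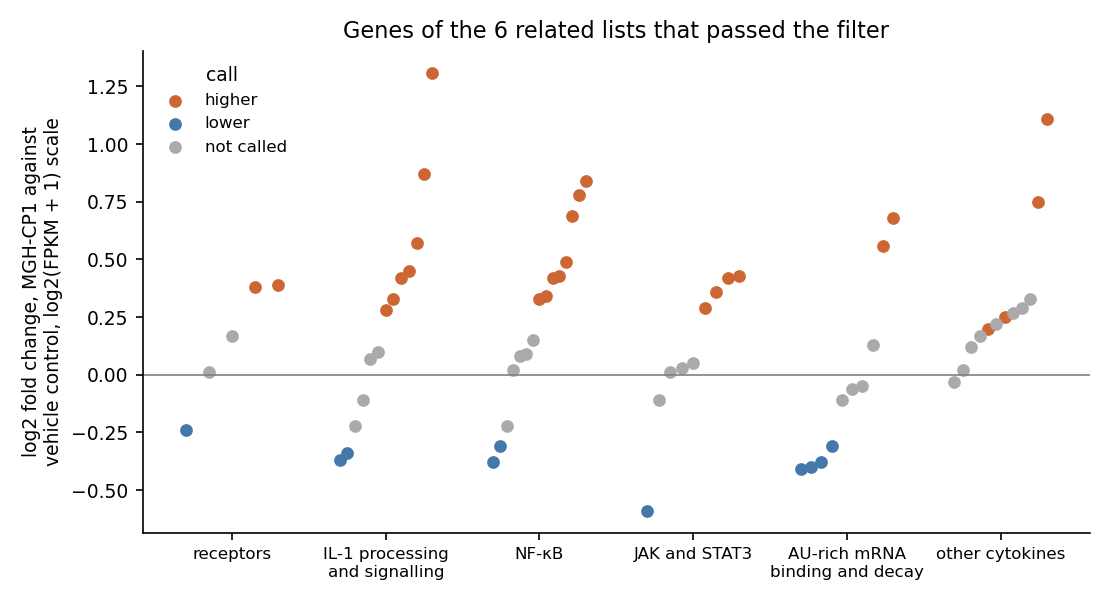
Log2 fold change of every gene that passed the filter in 6 lists related to the members, sorted within each list; orange marks genes called higher, blue lower and grey not called. The NF-κB list holds 8 orange and 2 blue points of 15, and the list for AU-rich mRNA binding and decay 2 orange and 4 blue of 10. Over all genes tested, 27.1% were called higher and 23.8% lower.

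JAK and STAT3 genes act downstream of gp130. Of 10 listed, 9 were tested, 4 called higher and 1 lower, with a median of 0.05. TYK2, a JAK kinase, rose by 0.43 (adjusted p = 0.000307), SOCS3, the feedback inhibitor of gp130 signalling, went from 12.6 and 14.5 to 18.1 and 18.5 FPKM (0.42, adjusted p = 0.00229), and PIAS3 rose by 0.36 (adjusted p = 0.00685). PTPN11, the phosphatase SHP2 that binds gp130, fell by 0.59 (adjusted p = 6.68e-05).

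Among 24 other cytokines and chemokines, 12 passed the filter, 4 were called higher and 0 lower in limma, with a median of 0.23; 0 were lower at an unadjusted p under 0.05, and limma voom also called 0 lower. CSF1, which supports macrophage survival, was far more abundant than any member and went from 102 and 99.9 to 228 and 211 FPKM (1.11, adjusted p = 1.22e-05). CX3CL1, a membrane-tethered chemokine, went from 2.45 and 2.81 to 5.13 and 5.05 FPKM (0.75, adjusted p = 0.000382). CLCF1, a further gp130 cytokine, rose by 0.25 (adjusted p = 0.0114). IL8, the CXCR2 ligand now named CXCL8 (chosen after its value was seen), was at 10.7 and 9.43 FPKM, then 11.8 and 11.1 FPKM, and was not called (0.17, adjusted p = 0.1).

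The members shared a feature of their mRNA that, as said above, is known for many cytokine mRNAs. Its frequency here therefore describes the chosen genes and supports nothing further. The pentamer ATTTA as written in DNA, the core of AU-rich elements, was counted over the whole length of the longest protein-coding transcript in GENCODE release 29. All 10 members held more per kilobase than the median of 1.06 over the 10821 tested genes with a transcript, and 8 of them lay in the top 5%. CSF2 had 10.2 per kilobase, more than any tested gene, CXCL2 had 8.21 and CXCL3 had 6.51. LIF had the lowest density at 1.76, exceeded by 30.1% of genes, and IL1A had 2.35. The longer TTATTTATT was present in 7 of the 10, with 6 copies in IL11 and 5 in CXCL2, against 10.3% of the tested genes. IL11 (3.95), which fell, and IL1B (3.68), which rose most, had similar densities. A relation between density and change was not tested.

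**Figure D5:**
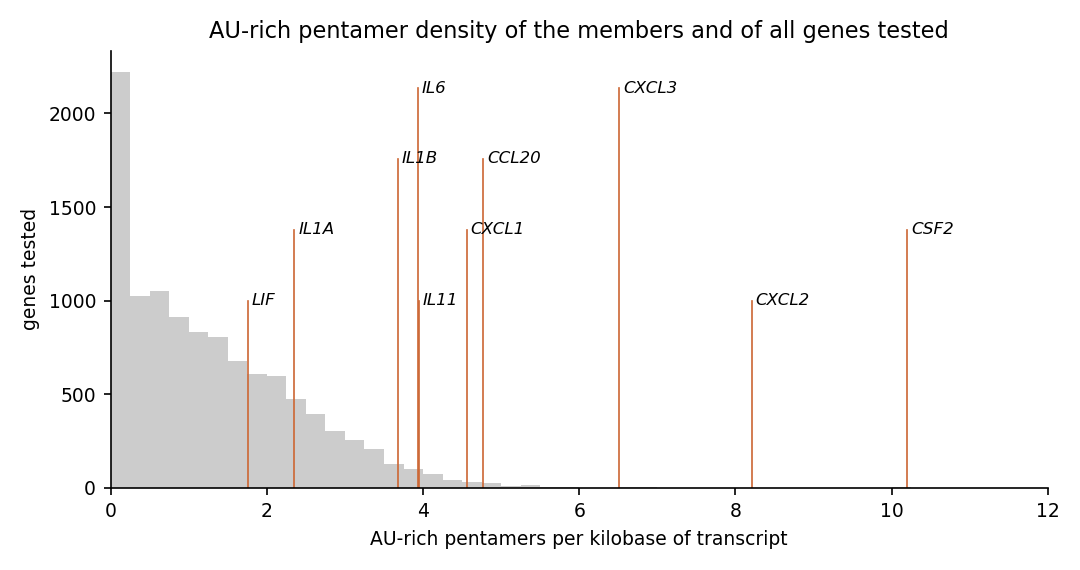
Number of tested genes (grey bars) by AU-rich pentamers per kilobase of transcript, with the 10 members marked by orange lines of arbitrary height. CSF2 (10.2 per kilobase) and CXCL2 (8.21) stand at the far right, and LIF (1.76) and IL1A (2.35) lie within the bulk of genes.

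Of 10 genes for proteins that bind AU-rich mRNA or degrade it, all were tested, 2 were called higher and 4 lower, with a median of -0.09. ZC3H12A, the endonuclease Regnase-1 that cleaves cytokine mRNAs, went from 3.75 and 4.43 to 7.49 and 6.76 FPKM (0.68, adjusted p = 0.000707). ZFP36, or tristetraprolin, which recruits the deadenylase to AU-rich elements, rose by 0.56 (adjusted p = 0.00287). CNOT1, the scaffold of that deadenylase, fell by 0.41 (adjusted p = 0.000478). ELAVL1, or HuR, which stabilises such mRNAs, fell by 0.40 (adjusted p = 0.000626), and KHSRP, which promotes their decay, fell by 0.38 (adjusted p = 0.000487).

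On the chromosomes, 147 genes lay within 250 kb of a member, 39 of them passed the filter, 16 were called higher and 7 lower. Some of those called higher passed the filter through the treated libraries only, so the count supports nothing by itself. Over all genes tested, 27.1% were called higher and 23.8% lower, and the neighbours were not tested as a set. PTPRH, a receptor phosphatase gene 154883 bases from IL11, rose by 0.99 (adjusted p = 0.000309) and UBE2S, a mitotic ubiquitin-conjugating enzyme gene 30821 bases from IL11, fell by 0.67 (adjusted p = 4.33e-05). Near the interleukin-1 genes, the non-coding AC079922.3 went from 0.699 and 0.601 to 2.14 and 1.74 FPKM and, like IL1B, passed the filter through the treated libraries only (0.83, adjusted p = 0.00117), while CKAP2L, for a spindle protein, fell by 0.84 (adjusted p = 5.67e-05) and TTL, for tubulin tyrosine ligase, fell by 0.71 (adjusted p = 6.39e-05). TBC1D10A, 45139 bases from LIF, rose by 0.78 (adjusted p = 0.000724). Genes near IL11 and near the interleukin-1 pair went in both directions. Genes on the opposite strand that overlap IL6 and LIF had at most 10 fragments per library. Whether counting used strand is not given in the sources used here.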

How the data were processed

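RNA-seq of 2 vehicle control and 2 MGH-CP1 libraries was analysed; groups came from the sample labels. Per the labels, mRNA was selected with poly-T beads; per the methods, Novogene made the libraries, read in 150 bp pairs. The authors deposited FPKM per gene with a gene length, a fixed annotation value; the submitters' processing notes name CASAVA 1.8, STAR and hg19, with no role given. Values were whole multiples of 1 fragment for 100% of entries (within 0.01), so fragments were recovered. Genes averaging at least 1 FPKM over the libraries (12080) were tested on log2(FPKM + 1), a pseudocount of 1, with limma 3.58.1 in R 4.3.3 (trend, 5.97 prior degrees of freedom, two-sided) and a Benjamini-Hochberg threshold of 0.05. No table of raw counts was used, so limma voom on recovered fragments was an alternative only; the depth of 17577930 to 25508824 fragments per library gives the intervals, exact Poisson at 95%, which cover counting error only, as does the floor of 3 fragments.

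Other settings were a pseudocount of 0.1, no filter, a mean of at least 5 FPKM, median-ratio scaling, quantile normalization, a replicate block, no trend, no shared variance, equal depth and each library left out. The fit was tested on simulated counts whose changes were larger than those of most members. That test does not bear on calls of small changes. The members, the lists (from general knowledge) and the tests were chosen with earlier results of these data known, and the motifs after the promoter windows had been seen. Named genes were all members, the TEAD targets and line markers, and, of each other list and of the chromosomal neighbours, the 3 largest rises and 3 largest falls among called genes with non-overlapping groups. Genes outside this rule are marked as chosen after their values were seen. The endothelial marker PECAM1 was not analysed here.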

Additional observations from a re-analysis of the deposited data

How the results depend on the processing

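No member's change reversed under any alternative run; the balance of calls over all genes did under median-ratio scaling (2815 higher, 3481 lower), quantile normalization (2918, 3221) and a mean of at least 5 FPKM (2434, 2564). Of the 14 alternatives for each member (13 for IL1B, CXCL1 and CXCL2, which fell below a mean of 5 FPKM), the call was lost in 8 for IL6, 6 for LIF, 4 for CXCL1, 3 for CSF2, 2 for CXCL2 and 1 each for IL11 and IL1B. With no filter on low values, 1 member was called higher, and the call was lost for IL6 (0.36, adjusted p = 0.237), LIF (0.28, 0.153), CXCL1 (0.44, 0.153), CXCL2 (0.60, 0.065) and CSF2 (0.41, 0.149), with 24878 genes in that fit. With a mean of at least 5 FPKM, 3 members were called higher, since 4 of the 10 were tested. Median-ratio scaling gave IL6 0.31 (0.068) and LIF 0.23 (0.0539), quantile normalization gave IL6 0.31 (0.0756), and limma without the trend gave IL6 0.36 (0.0792) and LIF 0.28 (0.0536); the cause was not tested. Without shared variance 0 members were called higher and 0 lower, at unchanged log2 changes of 0.36 for IL6, -0.83 for IL11, 0.28 for LIF, 1.04 for IL1B, 0.44 for CXCL1, 0.60 for CXCL2 and 0.41 for CSF2; over all genes that test called 9 higher and 4 lower, with 4947 at an unadjusted p under 0.05.

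Leaving out each library in turn called 3 (without MGH-CP1 replicate 1) to 5 members higher and 1 lower. The log2 change ranged from 0.16 to 0.57 for IL6, -0.87 to -0.79 for IL11, 0.19 to 0.38 for LIF, 0.92 to 1.17 for IL1B, 0.27 to 0.62 for CXCL1, 0.44 to 0.76 for CXCL2 and 0.23 to 0.59 for CSF2, with a lone library assumed to vary like the other group. Of 168 counts of called genes in the 6 lists under the alternatives, 148 stayed within 1.5 times the count reported and 20 did not.

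The libraries share only a replicate number: deviations of same-numbered libraries correlated at r = 0.078 across genes, which are not independent replicates. With the number as a replicate block, 6 members were called higher and 1 lower, with adjusted p = 0.00754 for IL6 and 7.19e-06 for IL11. Depth limits IL1A, CXCL3 and CCL20, which had at most 41 fragments in a library.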

Other observations

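Other cytokine genes that passed the filter without a call, all looked up after their values were seen, are given here as values. CCL2, a monocyte attractant, was at 6.15 and 4.61 FPKM in the vehicle control and 6.97 and 6.34 FPKM after MGH-CP1 (log2 change 0.27, adjusted p = 0.0872 in limma). CCL28, a mucosal chemokine, was at 4.37 and 4.73 FPKM, then 5.42 and 5.48 FPKM (0.22, adjusted p = 0.0526). IL24 was at 1.14 and 0.690 FPKM, then 1.22 and 1.56 FPKM (0.33, adjusted p = 0.116), and IL15 was at 0.769 and 1.01 FPKM, then 1.30 and 1.29 FPKM (0.29, adjusted p = 0.1). IL18, another cytokine of the interleukin-1 family, was at 6.49 to 7.08 FPKM in all 4 libraries (-0.03, adjusted p = 0.797). TNF had 0 to 3 fragments per library. IL1RN, the natural antagonist of the IL-1 receptor, was below the filter and not tested. It was at 0.531 and 0.245 FPKM in the vehicle control and 0.954 and 0.622 FPKM after MGH-CP1.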
